A study of Mus musculus with 13 samples.

Results

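The interleukin genes outside the IL-1 family were examined in mouse epididymal fat across diet and loss of the P2X7 receptor. They were taken from the deposited array values as every probe set that names 1 gene whose symbol is Il followed by a digit, leaving out the IL-1 family (Il1 plus a letter, Il18, Il33 and Il36). Where a gene had several probe sets, the one with the highest mean was kept. This gave 56 genes of 18820 measured, 28 of them cytokines and 28 receptors or signalling chains. The arrays were 13 Affymetrix gene arrays in 4 groups of male mice, each reading RNA from whole epididymal white fat. P2X7 knockout mice carried a targeted P2rx7 allele (P2rx7tm1Gab), backcrossed to C57BL/6 for 7 generations, and gave 4 arrays on high-fat diet and 3 on chow. Wild-type C57BL/6 mice gave 3 arrays on high-fat diet and 3 on chow. The high-fat diet held 60% of its energy as fat and the chow 13%, each fed for 12 weeks until 18 weeks of age. Both lines were bought and then bred in the study's own facility, and whether the groups were littermates is not given. The labels number the arrays of a group without saying that each was a separate animal, so the p-values cover only the spread among these arrays.

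Interleukins are secreted proteins through which cells of the immune system and their neighbours signal to each other. Most act through paired receptor chains: one binds the cytokine and the other, shared among several cytokines, passes the signal to JAK kinases and STAT transcription factors. The shared chains define families, such as the common gamma chain (IL-2, IL-4, IL-7, IL-9, IL-15, IL-21), the common beta chain (IL-3, IL-5), gp130 (IL-6, IL-11, IL-27) and the IL-10 receptor beta chain. The IL-17 receptors are built differently and signal through the adaptor Act1 and TRAF proteins. In fat, interleukins come from macrophages, lymphocytes and stromal cells, and obesity is known for a gain of macrophages. P2X7 is an ion channel opened by extracellular ATP, known for driving release of IL-1 family cytokines, which are not among these genes.

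RefSeq promoter windows (GRCm38.p6, from 250 bases before to 50 bases after the gene start) were held for 41 of the 56 genes. Each window was searched on both strands for a STAT motif (TTCNNNGAA), an AP-1 motif (TGANTCA) and a PU.1 motif (GAGGAAGT), none of which overlaps another in the windows printed here. The 4 windows shown belong to the receptor with the largest rise on the high-fat diet and to the 3 IL-17 receptor chains that fell in both genotypes. Capitals mark a motif match and all other bases are in lower case, 5′ to 3′ on the strand of the gene.
Il7r, chr15:9529827-9530126, minus strand, STAT match in capitals: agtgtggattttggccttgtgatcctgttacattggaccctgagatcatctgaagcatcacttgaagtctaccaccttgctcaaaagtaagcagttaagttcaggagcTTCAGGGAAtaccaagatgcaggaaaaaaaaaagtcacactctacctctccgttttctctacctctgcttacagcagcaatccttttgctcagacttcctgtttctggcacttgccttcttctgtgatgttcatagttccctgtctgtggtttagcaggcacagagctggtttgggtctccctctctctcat
Il17rb, chr14:30008847-30009146, minus strand, AP-1 match in capitals: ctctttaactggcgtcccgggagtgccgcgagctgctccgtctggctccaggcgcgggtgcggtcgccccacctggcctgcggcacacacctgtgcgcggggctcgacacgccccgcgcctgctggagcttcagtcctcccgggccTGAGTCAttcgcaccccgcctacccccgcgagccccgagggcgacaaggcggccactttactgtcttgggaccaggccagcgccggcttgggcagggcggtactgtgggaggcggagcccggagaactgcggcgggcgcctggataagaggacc
Il17rc, chr6:113471205-113471504, plus strand, no match: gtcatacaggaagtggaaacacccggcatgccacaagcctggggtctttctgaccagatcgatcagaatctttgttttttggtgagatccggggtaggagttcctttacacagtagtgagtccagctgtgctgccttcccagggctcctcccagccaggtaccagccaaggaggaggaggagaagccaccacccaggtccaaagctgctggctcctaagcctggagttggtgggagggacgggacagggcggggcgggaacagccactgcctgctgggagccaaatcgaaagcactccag
Il17re, chr6:113458521-113458820, plus strand, no match: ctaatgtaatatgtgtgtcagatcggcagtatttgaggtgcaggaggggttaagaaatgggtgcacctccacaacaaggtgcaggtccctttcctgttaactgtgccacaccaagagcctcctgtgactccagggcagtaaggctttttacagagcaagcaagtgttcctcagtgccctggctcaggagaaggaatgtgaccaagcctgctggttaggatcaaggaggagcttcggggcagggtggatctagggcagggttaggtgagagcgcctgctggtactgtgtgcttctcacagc
The STAT letters in the Il7r window begin at base -142 from the gene start, and the AP-1 letters in the Il17rb window at base -104. Of all 32851 windows, 8.3% held the STAT letters, 7.81% the AP-1 letters and 3.2% the PU.1 letters. Among genes that rose on the high-fat diet in both genotypes, 1 of 4 windows, from 4 genes, held the STAT letters (Il7r) and 1 held the AP-1 letters (Il13ra2). Among those that fell in both, 0 of 9 windows, from 6 genes, held the STAT letters and 4 held the AP-1 letters (1 window each of Il15ra, Il16, Il17rb and Il22ra1). Of 28 windows from 25 genes that passed in neither genotype, 3 held the STAT letters and 4 the AP-1 letters. The PU.1 letters were in the window of 0 of these genes. A match describes letters in a window and not a bound site.

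All values are log2 expression from robust multi-array averaging (RMA), a method that corrects background, equalises the arrays and summarises the probes of a set. The correlation between arrays of a group was 0.993 to 0.997. Since an array reports a reading for silent genes too, the 990 olfactory receptor genes served as a gauge of low signal: 95% of them had a highest group mean of 4.48 or less. By that gauge 20 of the 56 genes, 15 cytokines and 5 receptors, read within the olfactory receptor range, and 36 read above it. P2rx7 itself read 8.90, 9.14, 9.14 and 9.07 in high-fat-fed knockout mice and 8.23, 7.90 and 8.04 in chow-fed ones. In wild-type mice it read 9.54, 9.36 and 9.69 on high-fat diet and 8.32, 7.91 and 8.41 on chow. Knockout arrays were all below wild-type arrays on high-fat diet, with a log2 difference of -0.47 ± 0.12 (SE, adjusted p = 0.464), and overlapped them on chow. The labels do not say whether this probe set lies inside the altered piece of P2rx7, so its reading does not check the genotype.

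On the high-fat diet Il7r, Il10ra, Il10, Il13ra2, Il13ra1, Il3ra, Il27ra, Il10rb and Il15 rose in both genotypes. The IL-17 receptor chains Il17re, Il17rc and Il17rb fell in both genotypes, together with Il15ra, Il22ra1, Il22ra2, Il16, Il34 and Il7. These calls come from limma fitted to the 4 group means over all 13 arrays, with Benjamini-Hochberg adjustment over all 18820 genes and a threshold of 0.05, and sizes of rises and falls are on the log2 scale with their SE. In knockout mice 9 of the 56 genes rose and 11 fell, against a background over all genes of 14.5% that rose and 19.7% that fell. In wild-type mice 11 of 56 rose and 12 fell, against 17.7% and 18.1% of all genes. The shares of the 56 genes were thus near those of all genes: 16.1% rose and 19.6% fell in knockout mice, and 19.6% and 21.4% in wild-type mice. Their median log2 change was -0.06 in knockout mice and -0.05 in wild-type mice, beside -0.06 and -0.03 over all genes. Of the 28 receptors and chains, 7 rose and 6 fell in knockout mice, and 9 rose and 9 fell in wild-type mice. Of the 28 cytokines, 2 rose and 5 fell in knockout mice, and 2 rose and 3 fell in wild-type mice. Of these, 15 cytokines and 5 receptors read in the olfactory receptor range, and the difference between receptors and cytokines was not tested.

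Thus 9 rises and 9 falls passed in both genotypes, and 0 genes passed in opposite directions. The share of all genes passing in both genotypes was not worked out, so these counts have no background beside them. Passing in 1 genotype alone were Il17a and Il17b, which fell in knockout mice, and Il12rb2, Il4ra, Il5ra, Il31ra and Il17rd in wild-type mice, the first 2 up and the last 3 down. The other 31 genes passed in neither. No gene of the 56 passed the test of the difference between the genotypes' diet changes, given further on, so these 7 are not shown to differ by genotype. When each array was centred on its own median, the wild-type split became 9 rises and 15 falls, and over all genes the share of rises among calls became 38.5%, against 49.4% in the values as deposited. With the mean of 9 liver marker genes as a covariate, a setting chosen after seeing the data, the wild-type counts became 7 rises and 6 falls. The liver markers were chosen as genes known from liver, and were not shown to be absent from fat. Their mean was 5.70 to 6.87 in knockout mice on the high-fat diet and 6.64 to 6.79 in knockout mice on chow. In wild-type mice it was 5.94 to 7.80 on the high-fat diet and 7.91 to 8.80 on chow. This mean did not overlap between diets in wild-type mice or between genotypes on chow. The covariate is thus tied to those comparisons, and why calls were lost with it was not tested.

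**Figure D1:**
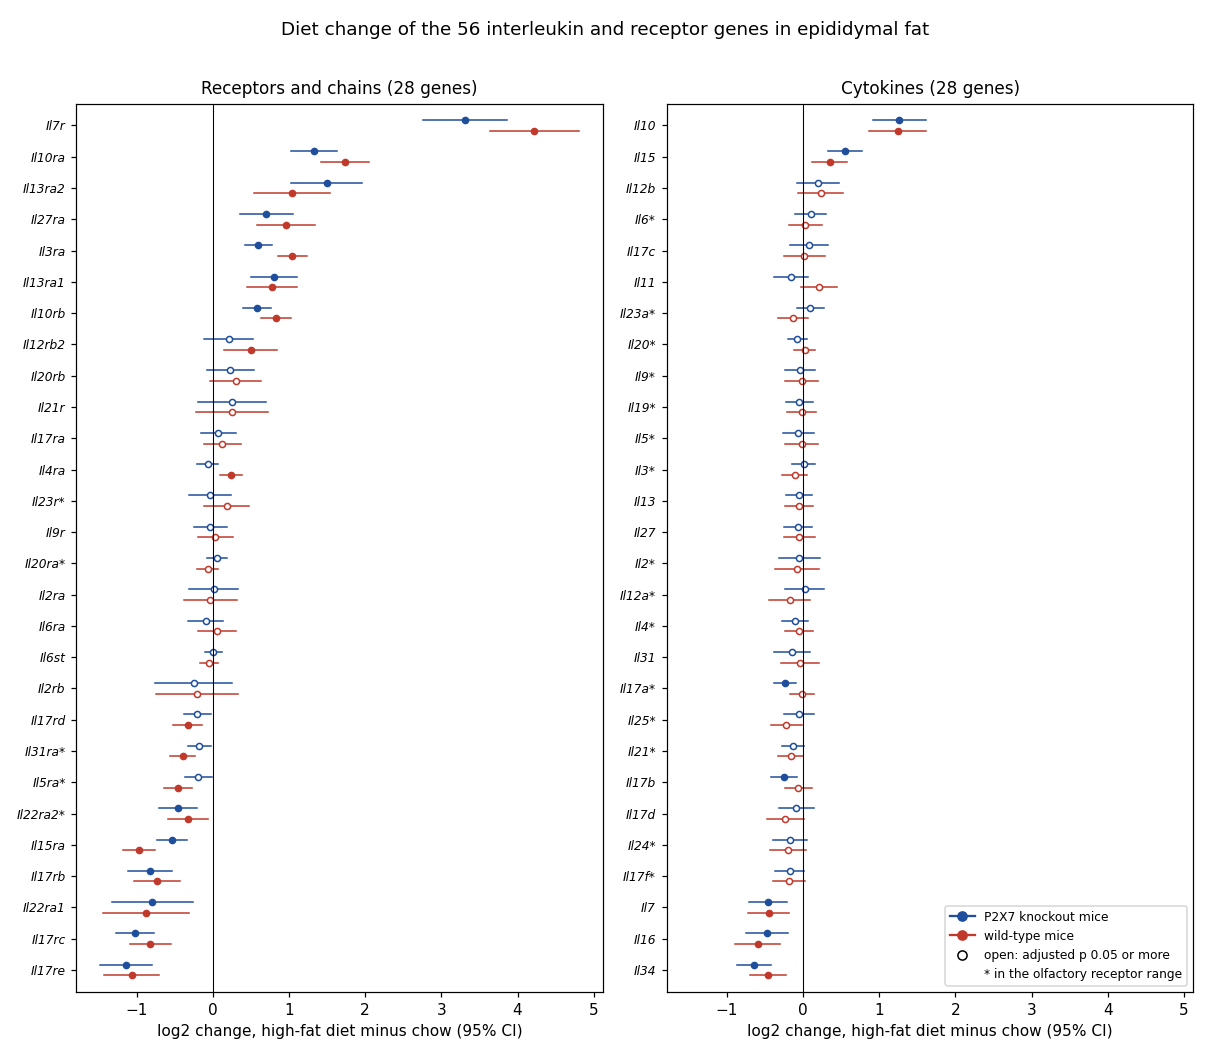
Log2 change on high-fat diet relative to chow (x axis) of the 28 receptors and chains (left) and 28 cytokines (right), with 95% confidence intervals from limma, in P2X7 knockout mice (blue, upper mark) and wild-type mice (red, lower mark). Filled circles passed the adjusted p threshold of 0.05 and asterisks mark the 20 genes in the olfactory receptor range. Il7r stands at 3.31 in knockout and 4.22 in wild-type mice, and Il17re at the other end at -1.14 and -1.07.

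The common gamma chain receptors held the largest change. Il7r encodes the alpha chain that binds IL-7 and, paired with another chain, TSLP, and it is best known for its part in lymphocyte development. It read 10.67, 10.77, 10.87 and 10.86 in knockout mice on the high-fat diet, against 8.03, 6.81 and 7.60 in knockout mice on chow. On the wild-type side it read 11.33, 10.66 and 11.10 on high-fat diet, against 7.04, 6.30 and 7.08 on chow. Every high-fat array lay above every chow array, by at least 2 log2 units within each genotype. The log2 change was 3.31 ± 0.25 in knockout mice (SE, 9.92-fold, adjusted p = 6.85e-07) and 4.22 ± 0.27 in wild-type mice (18.7-fold, adjusted p = 1.22e-07). Both calls were kept in each of 26 other settings.

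**Figure D2:**
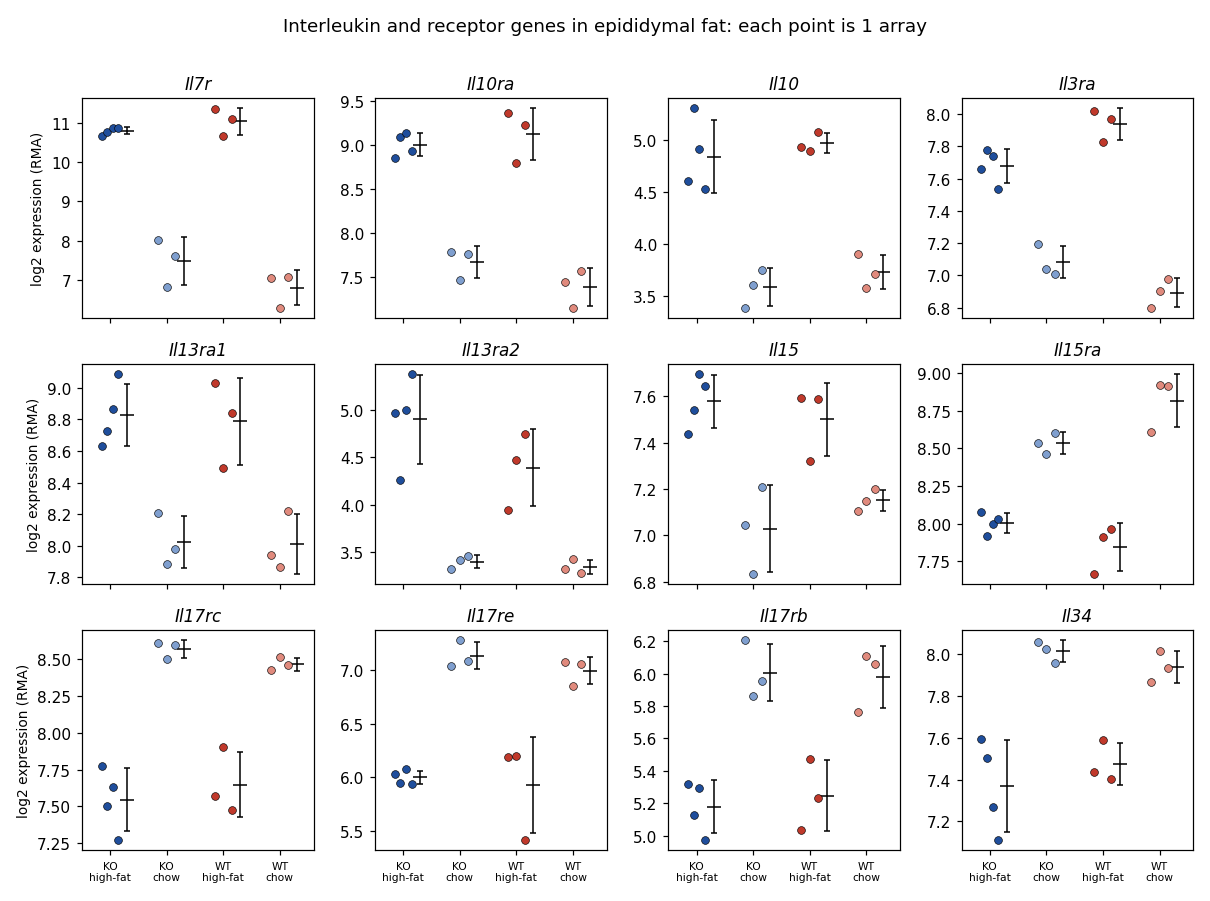
Log2 expression (y axis, scaled to each gene) of 12 interleukin and receptor genes in each array, by group: knockout on high-fat diet (dark blue, n = 4), knockout on chow (light blue, n = 3), wild-type on high-fat diet (dark red, n = 3) and wild-type on chow (light red, n = 3). Points are arrays and black bars the mean ± SD. The 12 genes plotted were picked from those called in both genotypes, and in each the high-fat and chow arrays of a genotype do not overlap. Over all 18820 genes, 3292 lay above and 4810 below without overlap in knockout mice, and 3915 and 4242 in wild-type mice. Levels are not to be compared between panels, since each gene has its own probes.

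Il15ra, the alpha chain that holds IL-15 and presents it to neighbouring cells, fell in both genotypes. It read 8.08, 7.91, 8.00 and 8.03 in knockout mice on the high-fat diet, against 8.54, 8.46 and 8.61 in knockout mice on chow. In wild-type mice the readings were 7.67, 7.91 and 7.97 on high-fat diet and 8.61, 8.92 and 8.92 on chow. The groups did not overlap in either genotype, and Il15ra fell by 0.53 ± 0.09 in knockout mice (adjusted p = 5.10e-04) and by 0.97 ± 0.10 in wild-type mice (adjusted p = 4.50e-06). Il4ra, the chain that binds IL-4 and serves IL-13 signalling too, read 9.13, 9.16, 9.04 and 9.10 in knockout mice on the high-fat diet and 9.15, 9.18 and 9.19 in knockout mice on chow, with overlap. Wild-type mice gave 9.37, 9.14 and 9.26 on high-fat diet and 9.07, 9.07 and 8.93 on chow, without overlap. Il4ra rose by 0.23 ± 0.07 in wild-type mice (adjusted p = 0.0144), while its change in knockout mice was -0.07 ± 0.06 (adjusted p = 0.464). The wild-type call of Il4ra was lost in 7 of 26 other settings, in which its log2 change was 0.17 to 0.23.

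The remaining chains of that family did not pass in either genotype. Il2ra, the IL-2 alpha chain known from regulatory T cells, had a log2 change of 0.01 ± 0.15 in knockout mice and -0.03 ± 0.16 in wild-type mice. Il2rb, shared by the IL-2 and IL-15 receptors, had a log2 change of -0.25 ± 0.23 and -0.21 ± 0.25. In knockout mice on the high-fat diet it read 5.99, 6.95, 6.08 and 6.05, with replicate 2 apart from the other 3. Il21r, the IL-21 receptor, had a log2 change of 0.25 ± 0.21 and 0.25 ± 0.22, and that same array had its highest reading, 6.31. Il9r, the IL-9 receptor, had a log2 change of -0.03 ± 0.10 and 0.03 ± 0.11. The common gamma chain itself, Il2rg, was not analysed here.

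Of the 6 cytokines that use these receptors, 1 rose and 1 fell in each genotype. Il15, a cytokine that maintains natural killer cells and memory T cells, read 7.44, 7.54, 7.70 and 7.64 in knockout mice on the high-fat diet, against 7.04, 6.83 and 7.21 in knockout mice on chow. The wild-type arrays gave 7.59, 7.32 and 7.59 on high-fat diet and 7.11, 7.15 and 7.20 on chow. High-fat arrays were above chow arrays in both genotypes, and Il15 rose by 0.55 ± 0.10 in knockout mice (adjusted p = 8.12e-04) and by 0.35 ± 0.11 in wild-type mice (adjusted p = 0.0207). Il15 and Il15ra thus moved in opposite directions. The wild-type call of Il15 was lost in 7 of 26 other settings, and was kept in 9 of 13 fits that left out 1 array. With the liver covariate the wild-type change of Il15 was 0.12 and did not pass (adjusted p = 0.599).

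Il7, the stromal cytokine that Il7r binds, moved opposite to its receptor as well. It read 5.57, 5.38, 5.48 and 5.70 in knockout mice on the high-fat diet, against 6.10, 6.15 and 5.74 in knockout mice on chow. The wild-type values were 5.49, 5.37 and 5.33 on high-fat diet, against 5.66, 6.00 and 5.87 on chow. All high-fat arrays were below the chow arrays of their genotype, and Il7 fell by 0.46 ± 0.12 in knockout mice (adjusted p = 0.0075) and by 0.45 ± 0.13 in wild-type mice (adjusted p = 0.0122). The wild-type call of Il7 was lost in 3 of 26 other settings. Among them was the liver covariate, with a log2 change of -0.52 ± 0.18 (adjusted p = 0.0617). The other 4 cytokines, Il2, Il4, Il9 and Il21, read within the olfactory receptor range and did not pass, with log2 changes from -0.16 (Il21, wild-type mice) to -0.02 (Il9, wild-type mice).

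Both receptors of IL-13 rose, while the cytokine did not pass. Il13ra1 pairs with Il4ra to signal for IL-13, and Il13ra2 is known chiefly as a decoy that takes IL-13 up. Il13ra1 read 8.63, 8.72, 8.87 and 9.09 in knockout mice on the high-fat diet, against 8.21, 7.89 and 7.98 in knockout mice on chow, and in wild-type mice 9.03, 8.49 and 8.84 on high-fat diet, against 7.94, 7.87 and 8.22 on chow. The arrays of the 2 diets did not overlap, and Il13ra1 rose by 0.80 ± 0.14 in knockout mice (adjusted p = 5.86e-04) and by 0.78 ± 0.15 in wild-type mice (adjusted p = 0.00111). Il13ra2 read 4.97, 4.26, 4.99 and 5.37 in knockout mice on the high-fat diet, against 3.33, 3.42 and 3.46 in knockout mice on chow, the chow readings all below 4.48 and so within the olfactory receptor range. Its wild-type readings were 3.95, 4.47 and 4.74 on high-fat diet and 3.33, 3.43 and 3.29 on chow. Of the high-fat readings, 4.26 in knockout mice and 3.95 and 4.47 in wild-type mice were below 4.48 too. Il13ra2 rose by 1.49 ± 0.22 in knockout mice (adjusted p = 1.33e-04) and by 1.04 ± 0.23 in wild-type mice (adjusted p = 0.00306). With the liver covariate the wild-type changes were 0.43 ± 0.17 for Il13ra1 (adjusted p = 0.10) and 0.79 ± 0.32 for Il13ra2 (adjusted p = 0.116), which did not pass. Il13 had a log2 change of -0.06 ± 0.08 in knockout mice and -0.05 ± 0.08 in wild-type mice.

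In the IL-10 family the IL-10 cytokine rose together with both chains of its receptor. IL-10 restrains inflammatory signalling, Il10ra binds it and Il10rb is the second chain, shared with IL-22 and related cytokines. Il10 read 4.61, 5.31, 4.92 and 4.53 in knockout mice on the high-fat diet, against 3.39, 3.61 and 3.75 in knockout mice on chow. Among wild-type arrays it read 4.94, 4.90 and 5.08 on high-fat diet and 3.91, 3.57 and 3.71 on chow, the chow readings of both genotypes lying in the olfactory receptor range. The diets did not overlap, and Il10 rose by 1.26 ± 0.16 in knockout mice (adjusted p = 4.60e-05) and by 1.24 ± 0.17 in wild-type mice (adjusted p = 7.36e-05).

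Il10ra read 8.85, 9.09, 9.13 and 8.93 in knockout mice on the high-fat diet, against 7.79, 7.46 and 7.77 in knockout mice on chow. Its levels in wild-type mice were 9.36, 8.80 and 9.22 on high-fat diet, against 7.45, 7.16 and 7.57 on chow. No high-fat array reached down to a chow array, and Il10ra rose by 1.33 ± 0.14 (2.52-fold, adjusted p = 7.75e-06) in knockout mice and by 1.73 ± 0.15 (3.33-fold, adjusted p = 1.07e-06) in wild-type mice. Il10rb rose by 0.57 ± 0.09 in knockout mice (adjusted p = 1.55e-04) and by 0.83 ± 0.09 in wild-type mice (adjusted p = 9.02e-06), again without overlap.

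Other receptors of the family fell or did not pass. Il22ra1, the signalling receptor for IL-22 that is known from epithelial cells, read 5.09, 4.91, 4.74 and 4.63 in knockout mice on the high-fat diet and 5.74, 6.09 and 5.08 in knockout mice on chow. Wild-type fat gave 5.33, 4.75 and 4.31 on high-fat diet and 5.44, 5.70 and 5.88 on chow. It fell by 0.80 ± 0.25 in knockout mice (adjusted p = 0.023), where 1 chow array lay inside the high-fat range, and by 0.88 ± 0.26 in wild-type mice (adjusted p = 0.0185), where the groups did not overlap. Leaving out 1 array kept the Il22ra1 call in 9 of 13 fits in knockout mice and in 11 of 13 in wild-type mice. The other probe set of Il22ra1 had a log2 change of -0.13 in knockout mice and -0.22 in wild-type mice and did not pass. Il22ra2, a soluble protein that binds IL-22, read within the olfactory receptor range throughout. It fell by 0.46 ± 0.11 in knockout mice (adjusted p = 0.00655) and by 0.33 ± 0.12 in wild-type mice (adjusted p = 0.0491), and the wild-type call was kept in 4 of 13 fits that left out 1 array. Il20ra and Il20rb, the 2 chains of the IL-20 receptor, had log2 changes of 0.06 ± 0.06 and 0.23 ± 0.14 in knockout mice and of -0.07 ± 0.06 and 0.30 ± 0.15 in wild-type mice, and did not pass. The cytokines Il19, Il20 and Il24 were in the olfactory receptor range and did not pass.

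Among the common beta chain genes, Il3ra rose. Il3ra encodes the alpha chain of the IL-3 receptor, found on myeloid progenitors, mast cells and basophils. It read 7.66, 7.78, 7.74 and 7.53 in knockout mice on the high-fat diet, against 7.19, 7.04 and 7.01 in knockout mice on chow. For wild-type mice the readings were 8.02, 7.83 and 7.97 on high-fat diet, against 6.80, 6.90 and 6.98 on chow. The diets did not overlap, and Il3ra rose by 0.60 ± 0.08 in knockout mice (adjusted p = 8.54e-05) and by 1.04 ± 0.09 in wild-type mice (adjusted p = 9.58e-07). Markers of mast cells rose as well, 7 of 9 in knockout mice and 5 of 9 in wild-type mice, beside 14.5% and 17.7% of all genes. Of 12 macrophage markers, 10 rose in each genotype, while 2 fell in knockout mice and 1 in wild-type mice. The part of these cells in the rise of Il3ra was not tested.

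Il5ra, the alpha chain of the eosinophil growth factor receptor, read 3.59, 3.70, 3.58 and 3.70 in knockout mice on the high-fat diet and 3.72, 3.85 and 3.93 in knockout mice on chow. In wild-type mice it read 3.50, 3.53 and 3.42 on high-fat diet and 3.96, 3.75 and 4.11 on chow, all within the olfactory receptor range. The high-fat arrays were below the chow arrays in both genotypes, and Il5ra fell by 0.46 ± 0.09 in wild-type mice (adjusted p = 0.00104). Its change in knockout mice was -0.19 ± 0.08 (adjusted p = 0.0882). Of 4 eosinophil markers, 2 of them in the olfactory receptor range, 1 fell in knockout mice and 0 in wild-type mice, beside 19.7% and 18.1% of all genes. In knockout mice the changes of the 4 ran from -0.46 to 0.88. The cytokines Il3 and Il5 were in the olfactory receptor range and did not pass.

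The gp130 family split between a receptor that rose and a signalling core that did not pass. Il27ra, the receptor chain for IL-27, read 7.47, 7.87, 7.54 and 7.24 in knockout mice on the high-fat diet, against 6.94, 6.83 and 6.71 in knockout mice on chow. On the wild-type side it read 8.09, 7.60 and 7.46 on high-fat diet, against 6.76, 6.56 and 6.96 on chow. High-fat arrays were above chow arrays in both genotypes, and Il27ra rose by 0.70 ± 0.16 in knockout mice (adjusted p = 0.00435) and by 0.96 ± 0.17 in wild-type mice (adjusted p = 6.70e-04).

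Il6st encodes gp130, the chain through which IL-6 and its kin signal. It read 11.09, 11.09, 11.15 and 11.14 in knockout mice on the high-fat diet and 11.04, 11.18 and 11.12 in knockout mice on chow. Wild-type mice gave 10.96, 11.06 and 11.12 on high-fat diet and 11.08, 11.10 and 11.12 on chow. The diets overlapped in both genotypes, with changes of 0.01 ± 0.05 (95% interval -0.11 to 0.12) in knockout mice and -0.05 ± 0.05 (-0.17 to 0.06) in wild-type mice. Il6ra, the IL-6 binding chain, read 9.43, 9.71, 9.54 and 9.38 in knockout mice on the high-fat diet and 9.86, 9.52 and 9.45 in knockout mice on chow. Its wild-type readings were 9.66, 9.41 and 9.57 on high-fat diet and 9.53, 9.37 and 9.59 on chow. These overlapped too, with changes of -0.09 ± 0.11 (-0.32 to 0.14) in knockout mice and 0.05 ± 0.11 (-0.20 to 0.30) in wild-type mice.

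Il6, often named among the cytokines of inflamed fat, read 3.06, 2.83, 2.83 and 2.87 in knockout mice on the high-fat diet and 2.75, 2.83 and 2.80 in knockout mice on chow. Its wild-type readings were 3.03, 2.79 and 2.73 on high-fat diet and 2.83, 3.02 and 2.62 on chow. All 13 readings lay in the olfactory receptor range and overlapped between diets, with changes of 0.10 ± 0.09 in knockout mice and 0.03 ± 0.10 in wild-type mice. Il31ra, the receptor of the itch cytokine IL-31, read 3.84, 3.97, 3.95 and 3.95 in knockout mice on the high-fat diet and 4.14, 4.15 and 4.02 in knockout mice on chow. Its wild-type readings were 3.95, 3.93 and 3.77 on high-fat diet and 4.19, 4.25 and 4.40 on chow. The diets did not overlap, though all readings were in the olfactory receptor range. Il31ra fell by 0.39 ± 0.08 in wild-type mice (adjusted p = 0.00121) and had a log2 change of -0.18 ± 0.07 in knockout mice (adjusted p = 0.0798). Il11, Il27 and Il31 did not pass, with changes from -0.15 (Il11, knockout mice) to 0.21 (Il11, wild-type mice).

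Of the IL-12 family, 1 receptor chain passed, in wild-type mice. Il12rb2, the IL-12 receptor chain known from T helper 1 and natural killer cells, read 5.16, 5.20, 5.10 and 4.77 in knockout mice on the high-fat diet and 5.01, 5.04 and 4.49 in knockout mice on chow. The wild-type arrays gave 5.46, 5.24 and 5.21 on high-fat diet and 4.99, 4.59 and 4.83 on chow. The diets overlapped in knockout mice, where the log2 change was 0.21 ± 0.15 (adjusted p = 0.32). They did not overlap in wild-type mice, where Il12rb2 rose by 0.50 ± 0.16 (adjusted p = 0.0263), a call lost in 6 of 26 other settings. Il23r, a chain of the IL-23 receptor, and the cytokine subunits Il12a, Il12b and Il23a did not pass, and all but Il12b were in the olfactory receptor range.

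Of the 5 IL-17 receptor chains, 3 fell in both genotypes and 1 more in wild-type mice. IL-17 receptors pair Il17ra with a second chain: Il17rc for IL-17A and IL-17F, Il17rb for IL-25, and Il17re for IL-17C. Il17re read 6.03, 5.95, 6.08 and 5.94 in knockout mice on the high-fat diet, against 7.04, 7.28 and 7.09 in knockout mice on chow. The wild-type values were 6.19, 6.20 and 5.41 on high-fat diet, with replicate 3 the lowest, against 7.08, 6.85 and 7.06 on chow. Diets did not overlap, and Il17re fell by 1.14 ± 0.16 in knockout mice (adjusted p = 8.83e-05) and by 1.07 ± 0.17 in wild-type mice (adjusted p = 2.17e-04).

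Il17rc read 7.77, 7.50, 7.63 and 7.27 in knockout mice on the high-fat diet, against 8.61, 8.50 and 8.59 in knockout mice on chow. Among wild-type arrays it read 7.57, 7.90 and 7.47 on high-fat diet, against 8.42, 8.51 and 8.46 on chow. It fell by 1.02 ± 0.12 in knockout mice (adjusted p = 1.59e-05) and by 0.82 ± 0.12 in wild-type mice (adjusted p = 1.54e-04), without overlap. Il17rb, whose ligand IL-25 acts on type 2 immune cells, read 5.32, 5.13, 5.30 and 4.97 in knockout mice on the high-fat diet, against 6.20, 5.86 and 5.95 in knockout mice on chow. Its wild-type readings were 5.03, 5.47 and 5.23 on high-fat diet and 5.76, 6.11 and 6.06 on chow. The diets again did not overlap, and Il17rb fell by 0.83 ± 0.13 in knockout mice (adjusted p = 2.84e-04) and by 0.73 ± 0.14 in wild-type mice (adjusted p = 0.00109).

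Il17rd, a chain known for restraining growth factor signalling, read 7.24, 7.23, 7.30 and 7.36 in knockout mice on the high-fat diet and 7.62, 7.46 and 7.38 in knockout mice on chow. Its levels in wild-type mice were 7.25, 7.32 and 7.19 on high-fat diet and 7.45, 7.60 and 7.72 on chow. High-fat arrays were below chow arrays in both genotypes, and Il17rd fell by 0.33 ± 0.09 in wild-type mice (adjusted p = 0.00843), while its change in knockout mice was -0.20 ± 0.08 (adjusted p = 0.0705). The other probe set of Il17rd had a log2 change of -0.14 in knockout mice and -0.03 in wild-type mice and did not pass. Il17ra, the common chain, did not pass, with changes of 0.07 ± 0.11 (-0.16 to 0.30) in knockout mice and 0.13 ± 0.11 (-0.12 to 0.37) in wild-type mice.

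The IL-17 cytokines gave small changes. Il17a, the T helper 17 cytokine, read 3.64, 3.55, 3.43 and 3.58 in knockout mice on the high-fat diet and 3.69, 3.90 and 3.78 in knockout mice on chow, within the olfactory receptor range. Wild-type fat gave 3.66, 3.65 and 3.68 on high-fat diet and 3.65, 3.75 and 3.63 on chow, with overlap. Il17a fell by 0.24 ± 0.07 in knockout mice (adjusted p = 0.0123). Il17b, a ligand of Il17rb, read 5.06, 4.98, 4.80 and 4.89 in knockout mice on the high-fat diet and 5.29, 5.13 and 5.14 in knockout mice on chow. Its wild-type readings were 5.02, 5.06 and 5.06 on high-fat diet and 5.06, 5.14 and 5.13 on chow, with overlap. Il17b fell by 0.25 ± 0.08 in knockout mice (adjusted p = 0.0245), a call lost in 7 of 26 other settings. Il17c, Il17d, Il17f and Il25 did not pass.

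Il34 and Il16 belong to no shared-chain family. IL-34 is the second ligand of the macrophage growth factor receptor Csf1r. Il34 read 7.59, 7.50, 7.27 and 7.11 in knockout mice on the high-fat diet, against 8.06, 8.03 and 7.96 in knockout mice on chow. For wild-type mice the readings were 7.43, 7.59 and 7.40 on high-fat diet, against 7.87, 8.02 and 7.93 on chow. All high-fat arrays were below the chow arrays, and Il34 fell by 0.65 ± 0.10 in knockout mice (adjusted p = 2.88e-04) and by 0.46 ± 0.11 in wild-type mice (adjusted p = 0.00477). Csf1, the other ligand, fell by 0.37 ± 0.10 and 0.35 ± 0.10, and Csf1r rose by 0.88 ± 0.11 and 1.04 ± 0.11, in knockout and wild-type mice in that order. Il16, a chemoattractant for cells that carry CD4, fell by 0.47 ± 0.13 in knockout mice (adjusted p = 0.0104) and by 0.60 ± 0.13 in wild-type mice (adjusted p = 0.00337), without overlap. With the liver covariate the wild-type changes were -0.25 ± 0.14 for Il34 (adjusted p = 0.252) and -0.41 ± 0.18 for Il16 (adjusted p = 0.144), which did not pass.

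In whole fat, more cells of a type and more RNA per cell cannot be told apart, so marker genes of several cell types are given beside these results. Over all genes, 14.5% rose and 19.7% fell in knockout mice, and 17.7% rose and 18.1% fell in wild-type mice. Of 12 macrophage markers, 10 rose and 2 fell in knockout mice, and 10 rose and 1 fell in wild-type mice. Their mean was 10.59 to 10.81 in knockout mice on the high-fat diet, against 9.15 to 9.54 on chow, and 10.61 to 10.97 in wild-type mice on the high-fat diet, against 8.94 to 9.33 on chow. Of 7 T cell markers, 0 passed in knockout mice and 1 fell in wild-type mice (Cd247). Their mean was 5.35 to 6.26 in knockout mice on the high-fat diet and 5.45 to 5.84 on chow, and 5.13 to 5.91 in wild-type mice on the high-fat diet and 5.42 to 5.49 on chow. Of the T cell markers, Cd3d read in the olfactory receptor range.

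All 7 mesothelial markers fell in both genotypes. The mesothelial mean was 7.88 to 8.15 in knockout mice on the high-fat diet, against 8.59 to 9.40 on chow, and 7.20 to 8.45 in wild-type mice on the high-fat diet, against 9.09 to 9.28 on chow. Of 8 adipocyte markers, 6 fell and 1 rose in knockout mice, and 7 fell and 1 rose in wild-type mice. Of 7 endothelial markers, 2 fell in knockout mice and 5 in wild-type mice, and 0 rose. These falls are 28.6% and 71.4% of the list, beside 19.7% and 18.1% of all genes. Of 6 smooth muscle and pericyte markers, 2 fell and 1 rose in knockout mice, and 4 fell and 1 rose in wild-type mice. Of 4 genes listed as markers of group 2 innate lymphoid cells, 2 fell in each genotype (Klrg1 and Rora) and 2 did not pass (Gata3 and Icos). IL-25 and IL-7 act on these cells, and the 4 genes were not shown to be specific to them in whole fat. The part of these cell types in the changes of the interleukin genes was not tested.

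**Figure D3:**
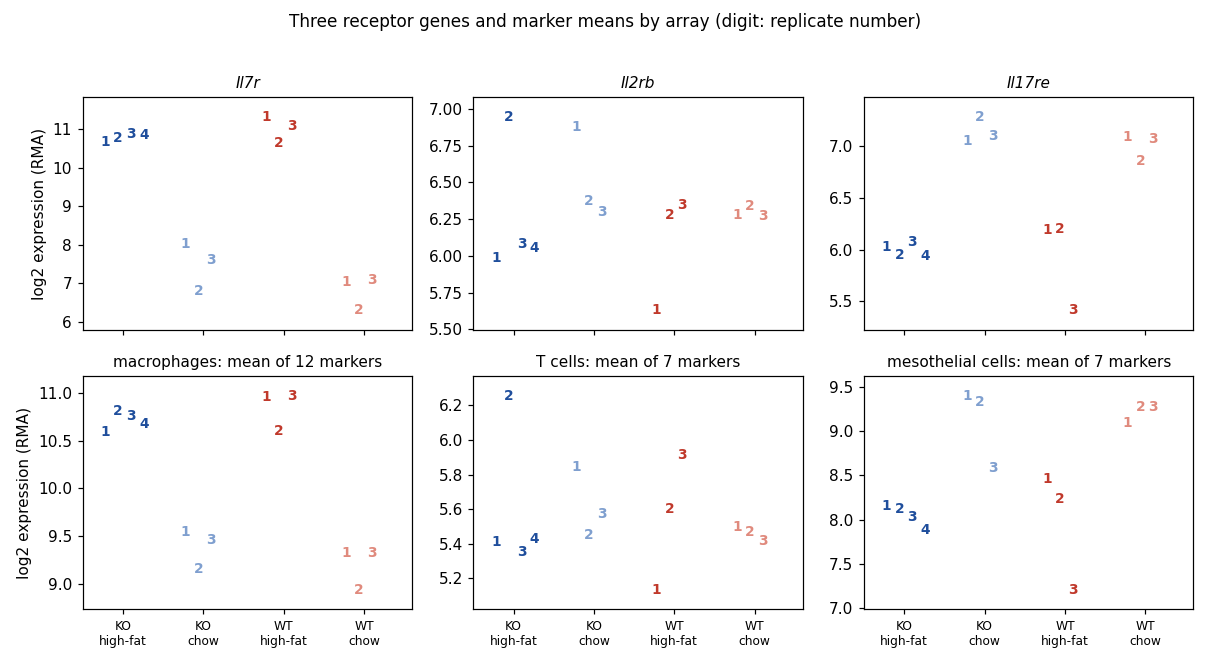
Log2 expression (y axis) of Il7r, Il2rb and Il17re in each array (top) and the mean of the macrophage, T cell and mesothelial marker lists in the same arrays (bottom), by group, each digit giving the replicate number. The diets are apart in both genotypes in Il7r, Il17re and the macrophage and mesothelial means, and overlap in Il2rb and the T cell mean; replicate 2 of the knockout mice on the high-fat diet is highest in both Il2rb (6.95) and the T cell mean (6.26).

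Loss of P2X7 was compared within each diet. None of the 56 genes passed on chow, where 0.133% of all genes did, or on high-fat diet, where 0.0425% did, by limma. At an unadjusted p under 0.05 there were 6 of the 56 genes on chow (10.7%, beside 9.62% of all genes) and 4 on high-fat diet (7.14%, beside 7.41%). The log2 differences, knockout minus wild type, ran from -0.28 to 0.67 on chow and from -0.26 to 0.51 on high-fat diet. On chow the smallest p-values belonged to Il15ra at -0.28 ± 0.10 (SE, adjusted p = 0.371), Il20 at 0.16 ± 0.06 (adjusted p = 0.423) and Il7r at 0.67 ± 0.27 (adjusted p = 0.448). Knockout arrays were all below wild-type arrays for Il15ra and all above for Il20, and overlapped for Il7r. Il20 read 3.62, 3.72 and 3.64 in knockout mice on chow and 3.46, 3.55 and 3.48 in wild-type mice on chow, within the olfactory receptor range.

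On high-fat diet the smallest p-values belonged to Il3ra at -0.26 ± 0.08 (adjusted p = 0.595), Il17d at 0.33 ± 0.10 (adjusted p = 0.595) and Il4ra at -0.15 ± 0.06 (adjusted p = 0.655). Il3ra was lower in every knockout array than in every wild-type array on that diet. Il17d, a cytokine of the IL-17 family, read 7.38, 7.26, 7.36 and 7.28 in knockout mice on the high-fat diet and 6.75, 7.13 and 7.08 in wild-type mice on the high-fat diet, all knockout arrays being higher. Il7r differed by -0.24 (95% interval -0.79 to 0.31) on high-fat diet, an interval that leaves room for a difference of either sign. These p-values miss the threshold and do not show that the genotypes are alike.

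**Figure D4:**
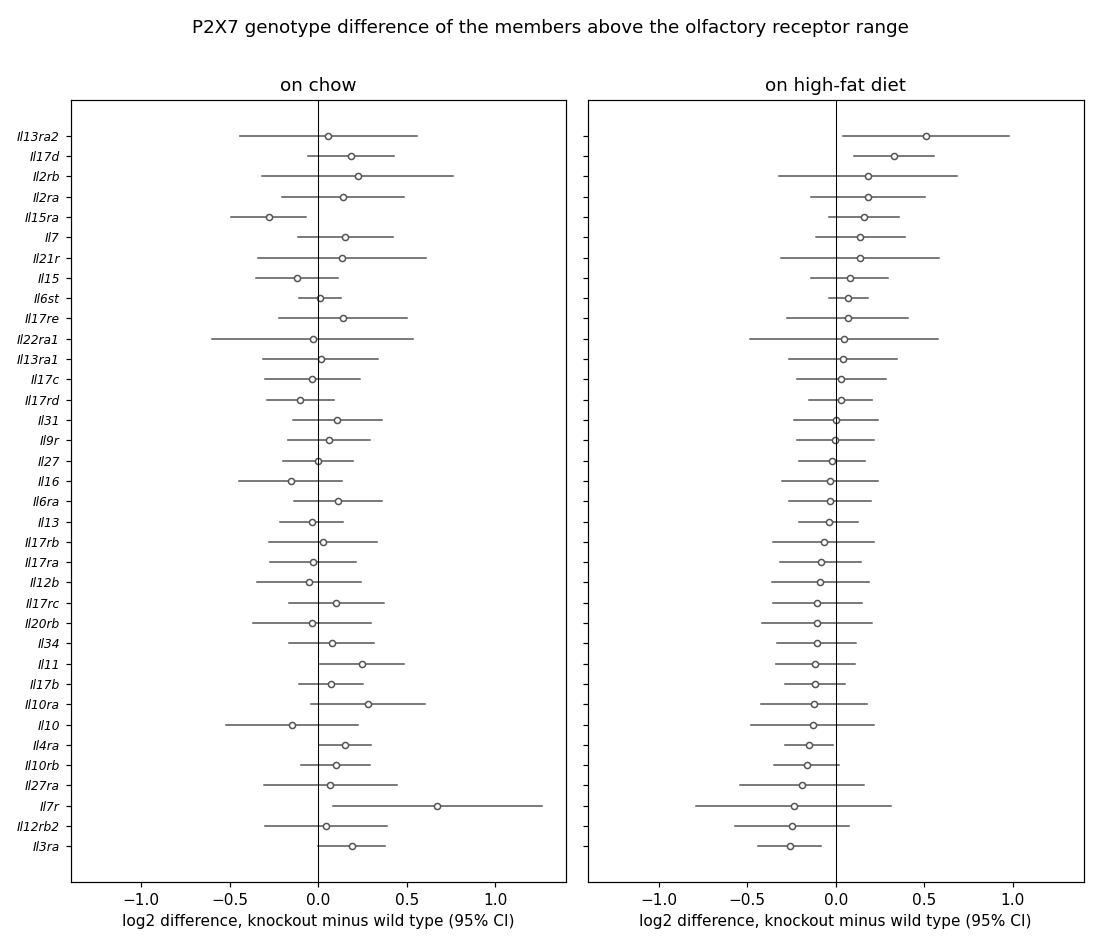
Log2 difference between P2X7 knockout and wild-type mice (x axis, knockout minus wild type, with 95% confidence intervals from limma) on chow (left) and on high-fat diet (right) for the 36 genes above the olfactory receptor range, ordered by the high-fat difference. All circles are open because 0 of the 56 genes passed the adjusted p threshold; Il3ra lies lowest on high-fat diet at -0.26 and Il13ra2 highest at 0.51, its wild-type mean of 4.39 lying under the limit of 4.48.

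The diet change itself was compared between genotypes as an interaction, the knockout diet change minus the wild-type one. By limma 0 of the 56 genes passed and 0% of all genes did, while 7 of the 56 (12.5%, beside 9.72% of all genes) had an unadjusted p under 0.05. In each of the 25 other settings that fitted the interaction the count was 0 as well, 1 of which, a filter on low signal, kept 34 of the 56 genes. The smallest p-values belonged to Il3ra at -0.45 ± 0.12 (adjusted p = 0.32), Il15ra at 0.44 ± 0.13 (adjusted p = 0.362) and Il4ra at -0.30 ± 0.09 (adjusted p = 0.364). In Il3ra and Il15ra the diet change passed in both genotypes and its estimate was smaller in knockout mice. The interaction of Il7r was -0.91 (95% interval -1.72 to -0.11, adjusted p = 0.472).

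Genes that work with these receptors were read from lists outside the Il names, and the share of all genes that passed in either direction was 34.2% in knockout mice and 35.8% in wild-type mice. Of 9 JAK kinases and STAT factors, 1 rose and 1 fell in knockout mice, and 3 rose and 2 fell in wild-type mice, which is 22.2% and 55.6% of the list, with median log2 changes of -0.13 and -0.02. Jak1, which serves most of these receptors, rose by 0.15 ± 0.05 in knockout mice and 0.21 ± 0.06 in wild-type mice. Stat5a, the factor downstream of IL-2, IL-7 and IL-15, fell by 0.50 ± 0.09 and 0.53 ± 0.10. Tyk2 and the IL-4 and IL-13 factor Stat6 rose by 0.56 ± 0.09 and 0.34 ± 0.06 in wild-type mice, and their changes in knockout mice were 0.14 ± 0.09 and 0.06 ± 0.06.

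Of 15 feedback inhibitors of JAK and STAT signalling, 1 rose and 3 fell in knockout mice, and 2 rose and 2 fell in wild-type mice. That is 26.7% of the list in each, beside 34.2% and 35.8% of all genes, a difference that was not tested. Cish, which STAT5 induces and which restrains it, fell by 1.24 ± 0.29 in knockout mice (adjusted p = 0.00412) and by 1.69 ± 0.31 in wild-type mice (adjusted p = 6.64e-04). The haematopoietic phosphatase Ptpn6 rose by 1.36 ± 0.14 and 1.60 ± 0.15, and its wider kin Ptpn11 fell by 0.44 ± 0.09 and 0.60 ± 0.09. Socs1, a STAT-induced inhibitor, fell by 0.48 ± 0.09 in knockout mice and had a log2 change of -0.19 ± 0.09 in wild-type mice. Socs5 rose by 0.40 ± 0.09 in wild-type mice, against 0.21 ± 0.09 in knockout mice.

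Of 17 measured partner chains and related cytokines without an Il name, 8 rose and 3 fell in each genotype, or 64.7% of the list, with median log2 changes of 0.12 in knockout and 0.31 in wild-type mice. The common beta chain Csf2rb rose by 0.62 ± 0.08 in knockout mice and 0.79 ± 0.08 in wild-type mice, and its mouse copy Csf2rb2, the beta chain that serves IL-3 alone, by 1.63 ± 0.13 and 1.65 ± 0.14. Csf2rb and Csf2rb2 are close copies, so their probe sets may share signal. Csf2ra, the binding chain for GM-CSF, rose by 0.95 ± 0.13 and 1.56 ± 0.13. Crlf2, the TSLP receptor chain that pairs with Il7r, rose by 0.81 ± 0.10 in knockout mice (adjusted p = 3.21e-05) and by 1.22 ± 0.11 in wild-type mice (adjusted p = 1.22e-06).

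Of 7 adaptors and targets of IL-17 signalling, 2 rose and 0 fell in knockout mice, and 4 rose and 1 fell in wild-type mice, which is 28.6% and 71.4% of the list. Traf5 rose by 0.65 ± 0.09 and 0.90 ± 0.09, and Traf2 by 0.35 ± 0.07 and 0.32 ± 0.08. Traf6, the ubiquitin ligase that Act1 recruits, fell by 0.25 ± 0.08 in wild-type mice, and Tnfaip3, an inhibitor of that pathway, rose by 0.51 ± 0.14 there. Their changes in knockout mice were -0.14 ± 0.07 and 0.15 ± 0.13 and did not pass.

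Of 15 genes that IL-4 and IL-13 induce in mouse macrophages, 5 rose and 6 fell in knockout mice, and 4 rose and 6 fell in wild-type mice, which is 73.3% and 66.7% of the list. Egr2, a transcription factor, rose by 2.35 ± 0.22 in knockout mice (adjusted p = 3.59e-06) and 3.05 ± 0.24 in wild-type mice (adjusted p = 5.29e-07). The chemokines Ccl17 and Ccl24 fell by 2.49 ± 0.18 and 1.83 ± 0.21 in knockout mice, and by 2.44 ± 0.19 and 1.88 ± 0.22 in wild-type mice. The lipoxygenase Alox15, known from resident peritoneal macrophages and eosinophils, fell by 1.39 ± 0.19 and 1.49 ± 0.21. These genes are not specific to IL-4 and IL-13, and the lists were chosen with earlier results of these data known.

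Several of the 56 genes lie side by side in the mouse genome, by gene order in GRCm38.p6. Il17re and Il17rc, on chromosome 6 with 0 coding genes between them, both fell in both genotypes. Their printed windows share a strand but hold none of the motifs searched. Il2ra and Il15ra are neighbours on chromosome 2, and of the pair Il15ra fell. In the row Il24, Il20, Il19 and Il10 on chromosome 1, Il10 rose and the other 3 did not pass. Il4ra and Il21r on chromosome 7, Il12rb2 and Il23r on chromosome 6, and Il6st and Il31ra on chromosome 13 each had 1 of the pair pass in wild-type mice and 0 in knockout mice. Il22ra2 and Il20ra on chromosome 10 had Il22ra2 pass in both genotypes. In Il17a and Il17f on chromosome 1, Il17a passed in knockout mice alone. Il4 and Il13 on chromosome 11, with Il5 beyond them past 1 other coding gene, and Il2 and Il21 on chromosome 3 did not pass.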

How the data were processed

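Total RNA (100 ng per array, RNA integrity number above 8.0) from epididymal fat was read on Affymetrix arrays, per the labels. The authors deposited log2 values made with RMA, per the submitters' processing notes; no version is stated. Of 35556 probe sets, 21218 named 1 gene, and the one with the highest mean was kept for each of 18820 genes; 5 interleukin probe sets naming several genes were left out. The values carry no counts, and the number of arrays limits the precision. limma 3.58.1 in R 4.3.3 (eBayes with intensity trend) was fitted to 4 group means over 13 arrays, with Benjamini-Hochberg adjustment over all genes, and tested on simulated data. Other settings concerned normalization, probe choice, filters, weights, covariates and leaving out arrays. Values per array were given for genes picked by rank and for a standing list (Il6, Il10, Il15, Il34 and their kin). The genes and lists were chosen with earlier results of these data known. Promoter sequences are from RefSeq, GRCm38.p6.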

Additional observations from a re-analysis of the deposited data

Results flagged for a closer look

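In the 4 arrays of knockout mice on high-fat diet, 1 array stood apart from the other 3 in 5 of the 56 genes, its gap to the nearest array exceeding Dixon's 95% critical value for 4 samples; chance alone gives about 1 such gene in 20. Il2rb read 6.95 in replicate 2, with the other 3 at 5.99 to 6.08, and that array also had the highest T cell (6.26) and B cell (6.59) marker means of its group. Il22ra2 read 3.67 in replicate 2, with the others at 3.46 to 3.49. Il6 read 3.06 in replicate 1, with the others at 2.83 to 2.87. Il31ra read 3.84 in replicate 1, with the others at 3.95 to 3.97. Il11 read 4.79 in replicate 3, with the others at 4.86 to 4.87. Except for Il2rb and Il11, these genes read within the olfactory receptor range. Groups of 3 arrays were not examined this way.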

How the results depend on the processing

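Of 43 diet calls of the 56 genes, 29 passed in every setting that tested the gene, other than the 1.5-fold minimum, and no called change reversed. A filter on low signal tested 34 of the 56 genes. With a 1.5-fold minimum, 7 genes rose and 5 fell in knockout mice and 8 rose and 6 fell in wild-type mice, and over all genes 2474 and 3027 were called, against 6429 and 6736. With the liver covariate, added after seeing the data, wild-type mice gave 7 rises, 6 falls and 3862 genes in all. On chow 0 genes differed by genotype with it, against 25. The liver mean did not overlap between diets in wild-type mice or between genotypes on chow, so this covariate is tied to those comparisons. The cause of the lost calls was not tested. Leaving out 1 array gave 9 rises each time and 9 to 12 falls in knockout mice and 8 to 12 rises and 11 to 12 falls in wild-type mice, with 5105 to 6652 and 5678 to 7039 genes called; the 8 rises came without wild-type high-fat replicate 1. Over all genes the genotype calls ran from 2 (without knockout chow replicate 1) to 44 on chow and from 6 to 177 on high-fat diet, and the interaction calls from 0 to 106, the highest each without wild-type high-fat replicate 2. With the 2 arrays of highest T cell signal left out, 14 genes differed on chow. With only the groups compared, 2 differed on high-fat diet, against 8. Without the trend 2, and with array weights 1, passed the interaction. The 56 genes gave 0 genotype calls in each of these, and 0 interaction calls in each that fitted the interaction. With the replicate number as a block, 6 genes differed on chow and 0 on high-fat diet; Il17b and Il22ra1 (knockout) and Il22ra2 (wild-type) no longer passed, and Il17f passed in knockout mice. The labels do not say whether the numbers pair the samples. Of 18 same-numbered pairs 6 correlated above 0.1 (-0.30 to 0.22), and 4 of 13 arrays correlated best with their own number, which does not settle it. Centring moved the median of all genes by -0.03 in knockout and -0.06 in wild-type mice. Low signal limits the 20 genes in the olfactory receptor range.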
